A study of Mus musculus with 24 samples.

Results

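Mouse livers taken 12 h after an overdose of acetaminophen (APAP) were compared with untreated livers (0 h), over mice with and without the transcription factors *E2f7* and *E2f8* in the liver. The comparison uses 10 of the 24 bulk RNA sequencing libraries, chosen from the labels by time: 4 control and 4 LKO livers at 0 h, each from 1 mouse, and 1 control and 1 LKO library at 12 h, each pooled from 3 mice. Every mouse, control or LKO, carried loxP-flanked *E2f7* and *E2f8* alleles and the R26R mTmG reporter on a mixed, mainly FVB background. LKO mice (liver knockout) carried the Alb-Cre transgene as well, whose albumin promoter acts in hepatocytes and their precursors, so liver cells of other lineages keep both genes, and control littermates lacked it. All mice were 2.5-month-old males fasted overnight for 16 h, and those of the pools then received 300 mg/kg APAP by intraperitoneal injection. Genotype entered the fit as a covariate, so the test is of the mean change over both genotypes, and 1 pool that moved far can be enough for a call. A pool has no replicate within its genotype, so the spread behind each p for 12 h against 0 h comes from the 8 single mice and from the distance between the 2 pools.

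Hepatocytes around the central vein turn part of an APAP dose into the reactive metabolite NAPQI, mainly through the cytochrome P450 enzymes CYP2E1 and CYP1A2. NAPQI uses up glutathione, binds mitochondrial proteins and sets off JNK kinase signalling, and the cells next to the central vein die. Surviving hepatocytes are known to switch on antioxidant genes under the transcription factor NRF2, dying cells attract neutrophils and monocytes, and the liver later regenerates.

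Reads assigned to genes numbered 12665686 to 19046197 over the 10 libraries, and 24411 gene symbols were counted. Reads that met no gene made up 13.6% of all reads in the control pool, 10.9% in the LKO pool and 8.47% to 10.7% in the 0 h mice. Unmapped reads made up 5.84% in the control pool, 5.16% in the LKO pool and 4.11% to 20.6% in the 0 h mice. Control replicate 3 (20.6%), LKO replicate 1 (13.5%) and control replicate 2 (12.0%) had the most. The part of either share in the results was not tested. Hepatocyte markers such as albumin and transferrin were abundant throughout, with a summed level of 70762 to 139714 CPM at 0 h, 120719 CPM in the control pool and 79970.4 CPM in the LKO pool. The share of them called was 18.2%, against 30.9% of all genes tested. Of the 11 markers 2 (*Fabp1* and *Ttr*) were called lower at 12 h, and none with either pool left out. *E2f8* was counted at 18.3, 17.7, 16.0 and 11.3 CPM in the control mice at 0 h, 21.6, 25.8, 33.3 and 17.2 CPM in the LKO mice at 0 h, and 13.7 and 46.0 CPM in the control and LKO pools, and *E2f7* at 0.114, 0.485, 0.338 and 0.354 CPM in the control mice at 0 h, 0.202, 0.160, 0.225 and 0.211 CPM in the LKO mice at 0 h, and 1.51 and 0.756 CPM in the control and LKO pools. Over single mice the genotypes overlapped in both genes. These counts cover the whole gene and cannot check the deleted part. *E2f7* was called higher at 12 h, from low counts, and passed the filter on low counts only with the 12 h pools, and *E2f8* was not called (0.42 ± 0.28). Values are CPM, counts scaled to a common library size with TMM factors, and a gene was called where edgeR's quasi-likelihood test gave a Benjamini-Hochberg adjusted p under 0.05 (written edgeR adjusted p) with a fold change of at least 1.5. A value given as a number ± its SE is a log2 fold change at 12 h over 0 h unless another contrast is named.

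The livers at 12 h differed widely from those at 0 h. Of 13164 genes tested, 4072 were called (30.9%), 2238 higher (17%) and 1834 lower (13.9%), while the median log2 fold change of all genes was -0.01. At an unadjusted p under 0.05 there were 6026. Of the called genes 4044 moved the called way in both pools, and 2994 of them (22.7% of the genes tested) by at least 1.5-fold in each pool against its own genotype at 0 h. In the control pool the called higher genes rose by a median of 1.40 on the log2 scale and in the LKO pool by 0.93. The called lower genes had medians of -1.16 and -0.97 in the control and LKO pools. Without the control pool, 1831 genes passed the test, and without the LKO pool 3956 did. Fits on the control libraries and on the LKO libraries, which share no library, called 3303 and 1365 genes, and the 884 genes called in both had the same sign in each. Each of these fits sets 1 pool against 4 mice, so its p rests on the untreated mice alone, and the overlap is a description. A fit without 1 of the 12 h pools also rests its p on the untreated mice alone. Counts from such fits, here and below, are a description too. These 884 genes are 26.8% of the control list and 64.8% of the LKO list. The filter on low counts was passed by 316 of the tested genes only with the 12 h pools, and 161 of these were called, all higher, so counts of higher genes hold some that were tested because they were high at 12 h.

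**Figure D1:**
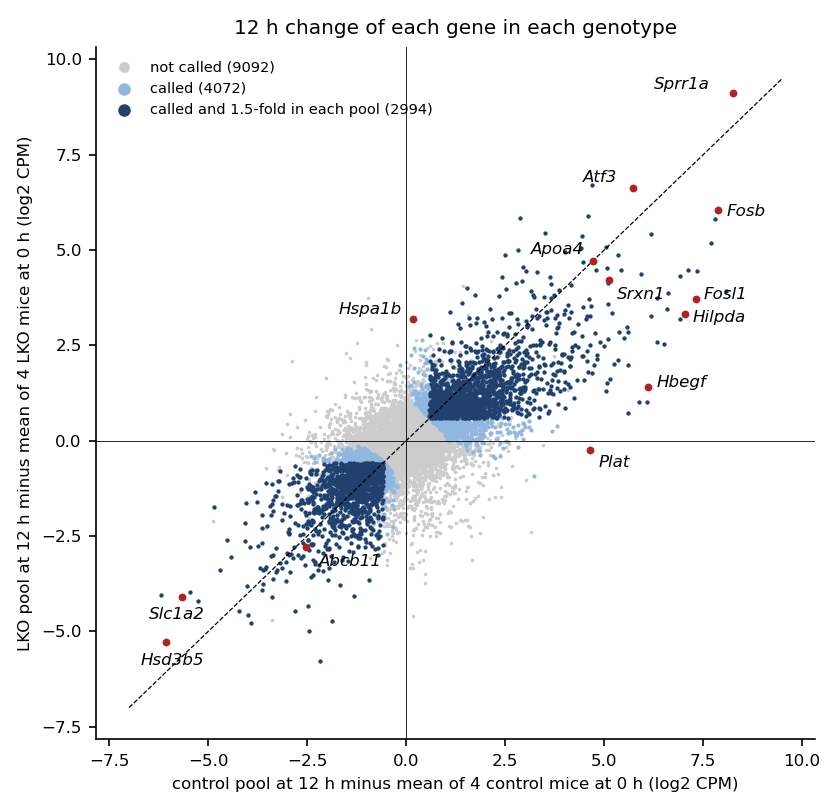
Change of each of 13164 genes at 12 h in the control pool (x axis) and in the LKO pool (y axis), as log2 CPM minus the mean of the 4 mice of that genotype at 0 h. Grey points were not called, light blue points were called (4072) and dark blue points were also changed by at least 1.5-fold in each pool (2994). Genes named in red lie along the dashed line of equal change where both pools moved alike. Rising genes below it, as *Hbegf* and *Plat*, moved less in the LKO pool, and those above it, as *Hspa1b* and *Sprr1a*, moved more. Falling genes above the line moved less in the LKO pool.

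*Cyp2e1* and *Cyp1a2*, which code for the main enzymes of APAP activation, were lower at 12 h. Of 20 genes that mark the pericentral zone 12 were lower, *Cyp2e1* among them. *Cyp1a2* on chromosome 9 (GRCm38, 57676937 to 57683703, minus strand) was counted at 849.7, 889, 808 and 1042 CPM in the control mice at 0 h, 625, 740.1, 889 and 661 CPM in the LKO mice at 0 h, and 155 and 159.5 CPM in the control and LKO pools. Both pools lay below every untreated mouse, with a log2 fold change of -2.36 ± 0.21 (SE), edgeR adjusted p = 1.6e-05. *Cyp2e1* ranged from 4810.1 to 9407 CPM at 0 h and was 4268 CPM in the control and 3354 CPM in the LKO pool (log2 fold change of -0.98 ± 0.22 (SE), edgeR adjusted p = 0.0048). Its call held in 17 of 22 alternative settings, and that of *Cyp1a2* in all 22. *Por*, the reductase that passes electrons to P450 enzymes, rose instead, from 429–950.0 CPM to 1330.3 and 1449.7 CPM (log2 fold change of 1.27 ± 0.21 (SE), edgeR adjusted p = 0.0008). Of 8 genes of APAP activation, 1 was called higher and 2 lower, 37.5% against 30.9% of all genes tested.

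Among 20 pericentral hepatocyte genes 12 fell and 2 rose (70%, against 30.9% of all genes tested), and the median log2 fold change was -1.22. *Slc1a2*, a glutamate transporter of the cells around the central vein, lies on chromosome 2 (GRCm38, 102658659 to 102790784, plus strand) and was counted at 101, 136, 121 and 122 CPM in the control mice at 0 h, 121, 91.7, 119 and 94.7 CPM in the LKO mice at 0 h, and 2.23 and 6.11 CPM in the control and LKO pools. Neither pool came near the 0 h range, with a log2 fold change of -4.77 ± 0.37 (SE), edgeR adjusted p = 5.5e-06. *Glul*, glutamine synthetase, went from 404–559 CPM to 172 and 200.5 CPM (-1.34 ± 0.19, edgeR adjusted p = 0.00034). The WNT receptor gene *Lgr5* went from 1.80–4.45 CPM to 0.196 and 0.698 CPM (-2.80 ± 0.46, edgeR adjusted p = 0.00085). *Rgn*, *Gulo*, *Lect2* and *Slc22a3* fell by between 1.90 and 2.72 on the log2 scale. The 2 members that rose, *Axin2* and *Tbx3*, are known as targets of WNT signalling. *Axin2* stood at 3.94, 4.23, 4.65 and 6.25 CPM in the control mice at 0 h, 3.71, 4.55, 4.00 and 2.58 CPM in the LKO mice at 0 h, and 4.19 and 14.8 CPM in the control and LKO pools. Only the LKO pool lay above the 0 h mice for *Axin2*, and the control pool lay within their range. *Tbx3* likewise lay within it in the control pool, at 13.1 CPM against 9.46 to 15.6 CPM at 0 h, and stood at 27.0 CPM in the LKO pool. Leaving out the control pool gave 10 lower and 2 higher genes of this list, and leaving out the LKO pool 14 lower and none higher.

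Periportal genes had no common direction: of 18 tested, 3 rose and 3 fell, with a median log2 fold change of -0.02. *Asl*, an enzyme of the urea cycle, rose by 1.32 ± 0.19. *Sdsl* rose by 1.76 ± 0.25 and the adhesion gene *Cdh1* by 1.42 ± 0.37, the latter with 279.9 CPM in the control pool and 75.0 CPM in the LKO pool against 42.6 to 91.2 CPM at 0 h. *Uox* (urate oxidase) fell by 1.88, *Pck1* by 1.17 and *Cyp2f2* by 0.79 on the log2 scale, and 1 gene was lower without the control pool. The share called was 33.3%, against 30.9% of all. In bulk tissue fewer cells of a type and less RNA per cell cannot be told apart.

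**Figure D2:**
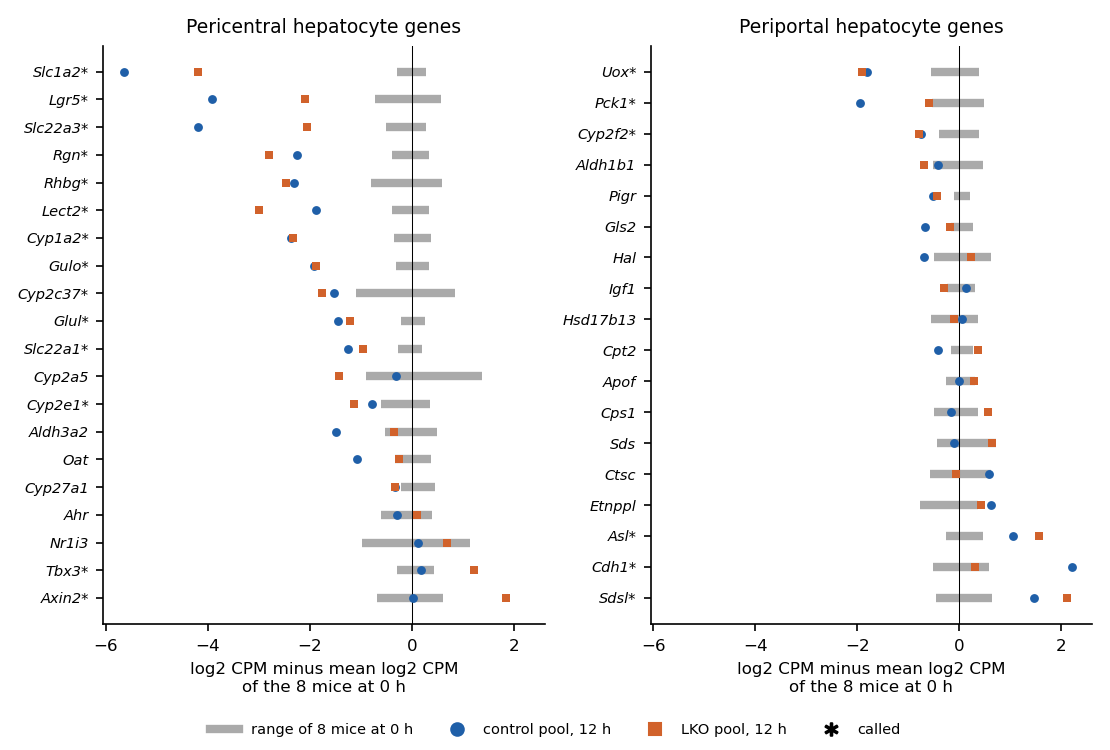
Pericentral (left) and periportal (right) hepatocyte genes, with the log2 CPM of each 12 h pool minus the mean log2 CPM of the 8 mice at 0 h on the x axis. Grey bars span the 8 mice, circles are the control pool, squares the LKO pool and asterisks mark called genes; 12 pericentral genes lie to the left of zero and called, from *Slc1a2* to *Cyp2e1*, while periportal genes lie on both sides.

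Of 19 conjugating enzyme genes 7 were lower and 1 higher, 42.1% against 30.9% of all genes tested. *Ugt2b1* fell by 2.07, *Papss2* (which makes the sulfate donor) by 1.38, *Gsta3* by 1.13 and *Gstt1* by 1.01 on the log2 scale, and *Ugdh*, which makes the donor sugar for glucuronidation, rose by 1.11 ± 0.15. Of these genes 2 were lower without the control pool and 4 without the LKO pool.

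Immediate-early genes, which code for the AP-1 factors and other fast responders to stress, were the list with the largest median change of the 36 pathway lists. Of 23 members 20 rose and none fell (87% called, against 30.9% of all genes tested), and the median log2 fold change was 2.87. Since 2 members passed the filter only with the 12 h pools, the count and the rank are a description. *Atf3*, a stress-induced repressor of the ATF family on chromosome 1 (GRCm38, 191170296 to 191218039, minus strand), was counted at 7.94, 2.08, 3.21 and 2.6 CPM in the control mice at 0 h, 4.18, 1.6, 1.69 and 2.42 CPM in the LKO mice at 0 h, and 189 and 238 CPM in the control and LKO pools. Both pools stood far above the highest 0 h mouse (log2 fold change of 6.12 ± 0.38 (SE), edgeR adjusted p = 1.1e-06). *Egr1* stood at 24.7, 35.1, 31.3 and 52.0 CPM in the control mice at 0 h, 8.70, 17.4, 9.97 and 14.4 CPM in the LKO mice at 0 h, and 562 and 382 CPM in the control and LKO pools, again without overlap (log2 fold change of 4.49 ± 0.27 (SE), edgeR adjusted p = 8.9e-07). *Fosb*, an AP-1 subunit, was counted at 1.71, 0.277, 0.591 and 2.36 CPM in the control mice at 0 h, 1.35, 0.481, 0.225 and 0.316 CPM in the LKO mice at 0 h, and 250.4 and 40.0 CPM in the control and LKO pools. The control pool held more *Fosb* than the LKO pool, and both were above all 8 mice (log2 fold change of 7.00 ± 0.48 (SE), edgeR adjusted p = 2.3e-06). *Jun* (2.87 ± 0.36), *Fos* (3.25 ± 0.44), *Maff* (3.88 ± 0.21), *Klf6* (3.98 ± 0.29) and *Myc* (3.10 ± 0.45) rose too. *Nr4a1* (-0.59 ± 0.85), *Dusp1* (-0.09 ± 0.42) and *Klf10* (0.46 ± 0.33) did not pass the test. Without the control pool 14 of 23 members were called higher.

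*Fosl1*, an AP-1 subunit that was almost silent at 0 h, gave 1 count over the 8 untreated libraries against 295 in the control pool and 28 in the LKO pool. The ratio of 12 h to 0 h counts, per read assigned to genes, was 1290 (exact 95% interval 230 to 51120, counting error only). *Sprr1a*, a gene of the cornified envelope of skin on chromosome 3 (GRCm38, 92483952 to 92485895, minus strand), gave 3 counts at 0 h, all from LKO replicate 2, against 568 and 1437 in the control and LKO pools, a ratio of 2670 (exact 95% interval 912 to 12960). Their fitted changes of 9.13 ± 0.59 and 11.02 ± 0.40 on the log2 scale depend on the prior count.

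JNK is the kinase that APAP injury activates, and a list of genes around it was examined next. Of 25 tested 15 were higher and none lower (60% called, against 30.9% of all genes tested), with a median of 0.96, and 7 were higher without the control pool. Stress adaptors led the list: *Gadd45a* went from 0.338–2.73 CPM to 62.5 and 14.6 CPM (4.38 ± 0.53) and *Gadd45b* from 1.18–9.61 CPM to 59.9 and 61.5 CPM (3.48 ± 0.41). The phosphatase gene *Dusp10*, whose product switches JNK off, rose by 3.42 ± 0.33. The kinase genes *Map3k6* (3.03 ± 0.51) and *Map3k14* (2.11 ± 0.21) rose as well. *Mapk8*, which codes for JNK1, rose by 0.75 ± 0.18, and *Mapk9* (JNK2) changed by -0.11 ± 0.15 and was not called.

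Targets of NRF2 rose in a good part, among them genes of glutathione synthesis and thiol repair. Of 30 targets 15 rose and 1 (*Gstm3*) fell (53.3% called, against 30.9% of all genes tested), with a median of 0.68, and 10 rose without the control pool, while none fell with either pool left out. Of the 30, 1 (*Slc7a11*) passed the filter only with the 12 h pools. *Srxn1* (sulfiredoxin), on chromosome 2 (GRCm38, 152105516 to 152111376, plus strand), was counted at 26.5, 37.8, 36.2 and 38.0 CPM in the control mice at 0 h, 39.6, 41.9, 27.5 and 32.2 CPM in the LKO mice at 0 h, and 1189 and 647 CPM in the control and LKO pools. The 0 h mice were close to each other and both pools were far above them (log2 fold change of 4.69 ± 0.20 (SE), edgeR adjusted p = 5.4e-08). *Hmox1* (heme oxygenase 1) stood at 16.7, 18.4, 24.2 and 24.5 CPM in the control mice at 0 h, 13.2, 15.5, 17.9 and 23.2 CPM in the LKO mice at 0 h, and 715 and 206 CPM in the control and LKO pools, again with no overlap (log2 fold change of 4.45 ± 0.26 (SE), edgeR adjusted p = 8.9e-07). *Gclc*, the rate-limiting subunit of glutathione synthesis, rose from 209.9–398 CPM to 2350.0 and 803 CPM (log2 fold change of 2.29 ± 0.29 (SE), edgeR adjusted p = 0.00016). Its partner *Gclm* changed by 0.21 ± 0.18 (edgeR adjusted p = 0.38) and was not called. *Txnrd1* (2.27 ± 0.17), *Osgin1* (2.83 ± 0.33), *Gsr* (1.24 ± 0.15) and *Pgd* (1.71 ± 0.15) rose, whereas *Prdx1* (-0.27 ± 0.21) did not pass. *Slc7a11*, the cystine importer that feeds glutathione synthesis, gave 2 counts over the 8 untreated mice and 48 and 135 in the control and LKO pools, a ratio of 366 (exact 95% interval 99.7 to 3041, counting error only). Glutathione transferase *Gsta1* and the near-identical gene *Gm3776* rose by 5.59 ± 0.59 and 5.81 ± 0.60, and reads that match both were not counted, so their separate levels are uncertain.

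Transcripts of metallothioneins and of ferritin were higher at 12 h. *Mt1* was counted at 22.7, 649, 1537 and 316 CPM in the control mice at 0 h, 341, 292, 61.8 and 65.0 CPM in the LKO mice at 0 h, and 3643 and 2441 CPM in the control and LKO pools. *Mt2* ran in parallel, at 3.94, 430.1, 839.9 and 144 CPM in the control mice at 0 h, 231, 171, 12.3 and 12.1 CPM in the LKO mice at 0 h, and 2651 and 1278 CPM in the control and LKO pools. Untreated mice spread over more than an order of magnitude in both genes, with control replicates 2 and 3 highest, yet the pools lay above all of them (log2 fold change of 3.17 ± 0.86 (SE), edgeR adjusted p = 0.014 for *Mt1*, and log2 fold change of 3.27 ± 1.09 (SE), edgeR adjusted p = 0.036 for *Mt2*). Without the control pool neither passed (edgeR adjusted p = 0.07 and 0.16). The ferritin genes *Fth1* and *Ftl1* rose by 1.51 ± 0.18 and 0.88 ± 0.21, and the zinc and iron importer *Slc39a14* by 1.54 ± 0.22. In all 6 of 14 genes of the list rose and 2 fell, 57.1% against 30.9% of all genes, and 2 rose and 1 fell without the control pool.

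Heat shock genes were called in both directions, 59.1% of them against 30.9% of all genes tested. Of 22 tested 7 rose, among them the inducible chaperones *Hspa1a*, *Dnajb1*, *Hspb1* and *Bag3*, and 6 fell, among them *Serpinh1*, the collagen chaperone, and *Fkbp4* and *Stip1*, helpers of HSP90. The number higher was 4 without the LKO pool, and the number lower was 2 without the control pool. *Hspa1a* was counted at 13.2, 15.3, 6.59 and 13.4 CPM in the control mice at 0 h, 7.21, 6.79, 19.3 and 11.8 CPM in the LKO mice at 0 h, and 38.8 and 146 CPM in the control and LKO pools. Both pools exceeded the untreated mice, the LKO pool most (log2 fold change of 2.89 ± 0.42 (SE), edgeR adjusted p = 0.00037). Its near-identical neighbour *Hspa1b* stood at 74.5, 144, 104 and 59.4 CPM in the control mice at 0 h, 33.0, 27.1, 88.3 and 93.1 CPM in the LKO mice at 0 h, and 102 and 481 CPM in the control and LKO pools, so that only the LKO pool was above the 0 h range (log2 fold change of 1.97 ± 0.58 (SE), edgeR adjusted p = 0.02). *Dnajb1* went from 28.8–65.7 CPM to 132 and 344 CPM (2.24 ± 0.31). *Fkbp4* went from 172–359 CPM to 87.6 and 103 CPM (-1.41 ± 0.29). The heat shock element searched here, GAANNTTC on both strands (its reverse complement is the same), was found in the 250 bases before the start of 7 of 24 promoters of these genes, and in 6.69% of 32851 mouse promoters (RefSeq, GRCm38.p6). Of the genes that hold it *Hspa1a*, *Hspa1b*, *Hspb1* and *Hspd1* rose, *Fkbp4* fell, and *Hspe1* (0.15 ± 0.26) and *Dnaja1* (-0.46 ± 0.30) did not pass. The promoters below are shown because those of *Hspa1a* and *Hspa1b* differ at only 3 of 250 bases, and *Fkbp4* holds an element before a gene that fell. Reads that match both *Hspa1a* and *Hspa1b* were not counted, so their separate levels are uncertain. Capitals mark the element, which begins 104 bases before the start of *Hspa1a* and *Hspa1b* (minus strand, chr17:34972157-34972406 and chr17:34959239-34959488) and 151 bases before that of *Fkbp4* (minus strand, chr6:128438657-128438906).
Hspa1a: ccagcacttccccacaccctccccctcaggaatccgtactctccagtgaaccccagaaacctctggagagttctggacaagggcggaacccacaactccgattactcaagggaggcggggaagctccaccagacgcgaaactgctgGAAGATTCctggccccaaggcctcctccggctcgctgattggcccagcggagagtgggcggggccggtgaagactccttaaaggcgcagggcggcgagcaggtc
Hspa1b: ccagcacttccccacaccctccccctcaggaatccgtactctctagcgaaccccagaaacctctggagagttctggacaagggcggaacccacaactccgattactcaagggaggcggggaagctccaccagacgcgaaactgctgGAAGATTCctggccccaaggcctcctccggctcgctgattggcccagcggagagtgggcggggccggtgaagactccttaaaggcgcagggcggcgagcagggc
Fkbp4: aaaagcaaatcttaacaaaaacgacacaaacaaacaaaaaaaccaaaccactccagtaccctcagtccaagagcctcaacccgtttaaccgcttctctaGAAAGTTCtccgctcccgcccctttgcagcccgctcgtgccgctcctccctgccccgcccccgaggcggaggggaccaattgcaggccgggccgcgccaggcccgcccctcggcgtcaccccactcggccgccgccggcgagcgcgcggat

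The metal response element (TGCACNC or TGCGCNC, both strands) was matched in 6 of 15 promoters of the metal list and in 21.4% of all promoters. *Mt1* and *Mt2* are shown because they rose most in that list. Their promoters lie on the plus strand at chr8:94178839-94179088 and chr8:94172368-94172617, with 1 and 3 matches in capitals. *Slc39a8*, which fell by 0.90 on the log2 scale, held a match too. The antioxidant response element (TGACNNNGC, both strands) stood in 9 of 33 promoters of NRF2 targets and in 10.2% of all.
Mt1: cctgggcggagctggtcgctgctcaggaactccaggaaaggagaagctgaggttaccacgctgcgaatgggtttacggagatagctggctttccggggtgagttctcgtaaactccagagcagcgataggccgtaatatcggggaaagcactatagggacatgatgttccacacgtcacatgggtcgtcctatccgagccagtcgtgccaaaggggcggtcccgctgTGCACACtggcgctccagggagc
Mt2: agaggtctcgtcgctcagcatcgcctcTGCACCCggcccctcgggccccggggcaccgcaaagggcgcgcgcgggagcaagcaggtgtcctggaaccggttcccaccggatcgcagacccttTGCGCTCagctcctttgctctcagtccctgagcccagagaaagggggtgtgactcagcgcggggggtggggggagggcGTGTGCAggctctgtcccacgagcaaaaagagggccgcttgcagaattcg

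The integrated stress response, which slows translation and raises amino acid synthesis and import through ATF4, was also represented. Of 22 tested members 11 rose and none fell (50% called, against 30.9% of all genes tested, median 1.15), and 7 rose without the control pool. *Psat1*, an enzyme of serine synthesis, was counted at 0.571, 0.554, 0.929 and 0.354 CPM in the control mice at 0 h, 0.539, 0.321, 0.676 and 0.526 CPM in the LKO mice at 0 h, and 28.1 and 18.3 CPM in the control and LKO pools, with both pools well above all untreated mice (log2 fold change of 5.35 ± 0.26 (SE), edgeR adjusted p = 1.2e-07). *Fgf21*, a hormone of fasting and stress, rose from 0.762–4.55 CPM to 14.5 and 26.9 CPM (2.98 ± 0.35), *Slc7a1* by 2.98 ± 0.30 and *Ddit3* (CHOP) by 2.22 ± 0.35. Other classical targets did not pass, such as *Asns* (1.48 ± 0.90) and *Trib3* (-0.60 ± 0.51). The letters TGATGNAA of an ATF4 element occur in 3.45% of all promoters (either strand), in 4 of 27 promoters of this list and in 3 of 12 of the aminoacyl-tRNA synthetases. Of the members of this list that hold it *Fgf21* rose, and *Chac1* (-0.08), *Asns* and *Nupr1* (0.94) did not pass. Of the synthetases that hold it *Gars* rose, and *Aars* (0.21) and *Tars* (0.30) did not pass. *Slc7a11*, taken from the NRF2 list and shown for its jump from near silence, holds 2 elements within 66 bases of its start (minus strand, chr3:50443614-50443863, capitals mark them).
Slc7a11: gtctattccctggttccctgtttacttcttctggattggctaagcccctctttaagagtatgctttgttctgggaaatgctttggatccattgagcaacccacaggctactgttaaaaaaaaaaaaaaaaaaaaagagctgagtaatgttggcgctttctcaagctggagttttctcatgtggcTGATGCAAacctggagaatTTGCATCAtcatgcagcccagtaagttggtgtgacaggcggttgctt

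Chaperones of the endoplasmic reticulum gave no call upward. Of 20 tested none was higher and 5 were lower (*Herpud1*, *Ero1lb*, *Pdia6*, *Edem1* and *Canx*), 25% against 30.9% of all genes tested, with a median of -0.75, and 1 was lower without the control pool and 3 without the LKO pool. *Hspa5* (BiP) changed by 0.20 ± 0.44 and spread from 786 to 2828 CPM among the untreated mice. The summed level of the chaperone list spread from 5722 to 14659 CPM at 0 h. Both pools lay within that range, at 6735 CPM (control) and 6585 CPM (LKO). *Gars*, *Lars*, *Iars* and *Farsa* were the aminoacyl-tRNA synthetase genes that rose, 4 of 20, and *Dars* fell, a share called of 25% against 30.9% of all genes tested, and 2 rose and none fell without the control pool. Of 31 proteasome subunits 4 were higher and none lower, 12.9% against 30.9% of all, the largest being *Psmd11* (0.92 ± 0.13), and 2 were higher and 1 lower without the LKO pool.

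**Figure D3:**
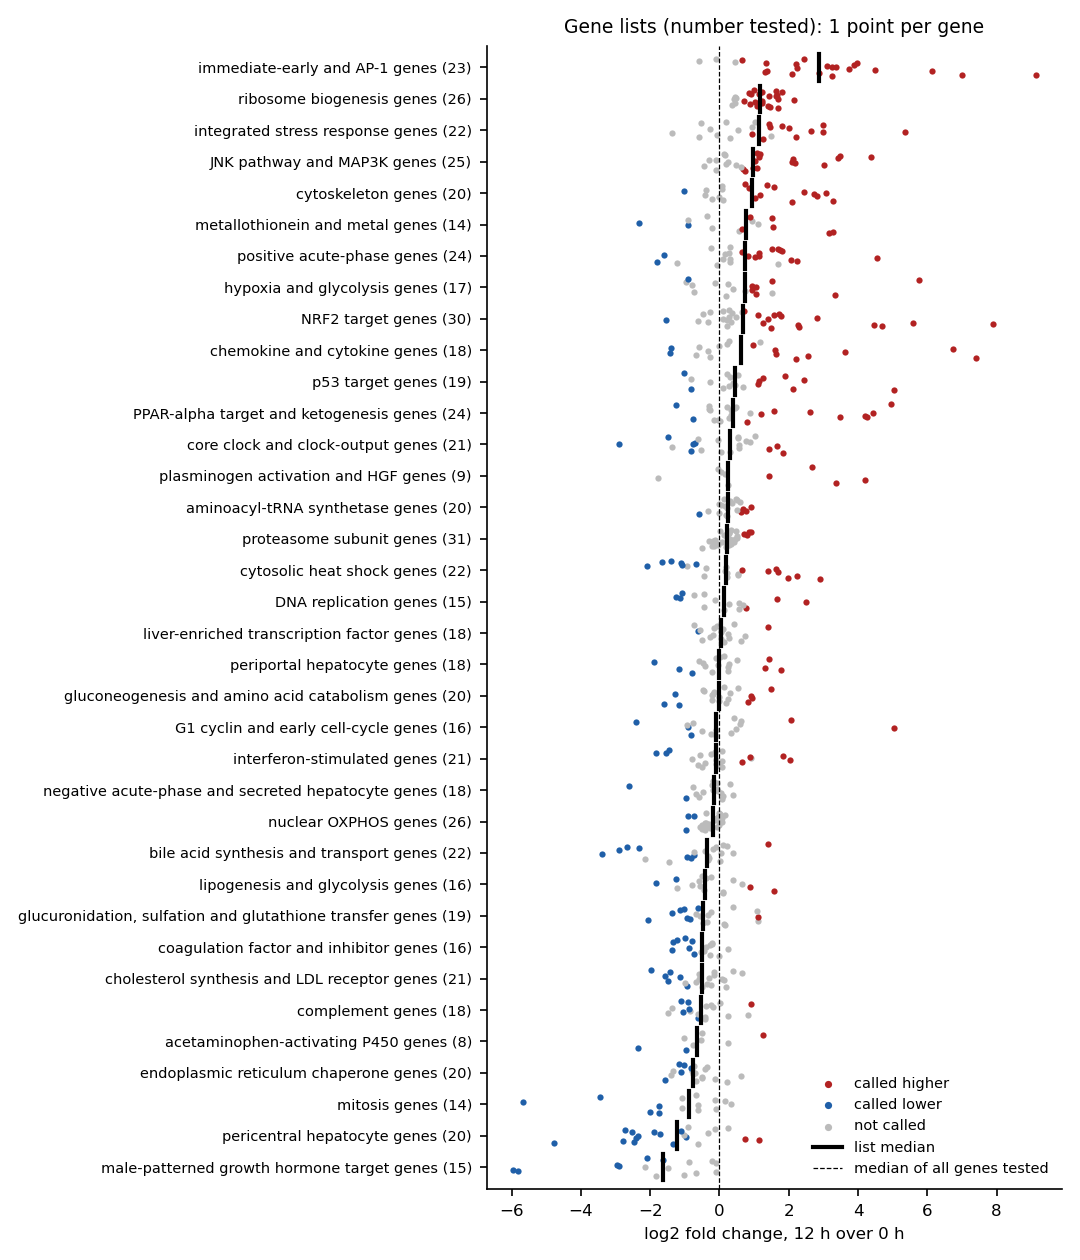
Log2 fold change at 12 h over 0 h (x axis) of every tested gene in 36 pathway lists (y axis, number tested in brackets). Red and blue points were called higher and lower, grey points were not called, thick black bars are list medians and the dashed line is the median of all genes; medians run from 2.87 for immediate-early genes to -1.63 for growth hormone targets.

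**Figure D4:**
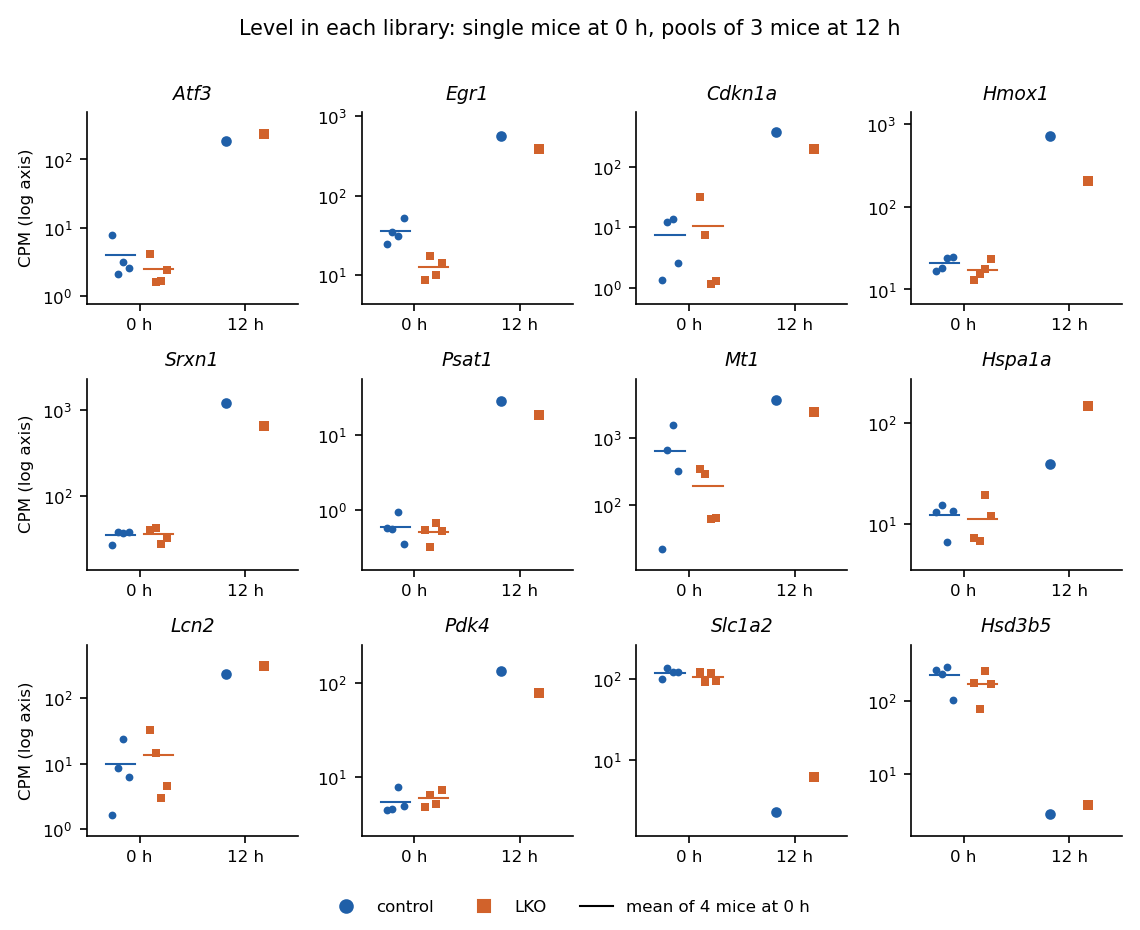
CPM on a log axis in each of the 10 libraries for 12 genes, with 4 control (circles) and 4 LKO (squares) mice at 0 h, their mean as a line, and 1 pool of 3 mice per genotype at 12 h. Both pools lie above all 0 h mice in the first 10 panels and below them in the panels of *Slc1a2* and *Hsd3b5*.

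Genes of ribosome assembly rose almost together. Of 26 tested 21 were higher and none lower (80.8% called, against 30.9% of all genes tested), and the median was 1.17, led by *Rrp12* (2.16 ± 0.24), *Heatr1* (1.80 ± 0.23), *Nop56* (1.69 ± 0.22) and *Rrs1* (1.69 ± 0.21). The change was larger in the control pool for 24 of the 26. *Ncl* (nucleolin) went from 140.3–205 CPM to 423 and 224 CPM, and 12 of the 26 passed without the control pool.

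Of 19 targets of p53 7 were higher and 2 lower, 47.4% against 30.9% of all genes tested. *Cdkn1a*, the p21 inhibitor of the cell cycle, was counted at 1.37, 12.2, 13.7 and 2.54 CPM in the control mice at 0 h, 31.8, 7.49, 1.18 and 1.32 CPM in the LKO mice at 0 h, and 368 and 198 CPM in the control and LKO pools. The untreated mice differed widely, and the pools were above the highest of them (log2 fold change of 5.05 ± 0.87 (SE), edgeR adjusted p = 0.0011). *Mdm2*, the negative regulator of p53, rose by 2.11 ± 0.23 and *Aen* by 1.27 ± 0.22, whereas *Ccng1* and *Rps27l* fell by 0.82 and 1.02 on the log2 scale. The list median was 0.43, and it was -0.23 without the control pool, where 4 genes rose and 1 fell. It was 1.21 without the LKO pool, where 9 rose and 1 fell.

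Cytoskeletal genes rose in 12 of 20 cases and *Tmsb4x* fell (65% called, against 30.9% of all genes tested), with a median of 0.94, and 7 rose without the control pool, where the median was 0.48. *Krt8*, a keratin of hepatocytes, was counted at 273, 256, 224 and 293 CPM in the control mice at 0 h, 237, 232, 196 and 249.96 CPM in the LKO mice at 0 h, and 4175 and 665 CPM in the control and LKO pools. Both pools exceeded the untreated mice, but the control pool by far more (log2 fold change of 3.08 ± 0.35 (SE), edgeR adjusted p = 7.9e-05). *Krt18* went from 157–208 CPM to 1830.0 and 323 CPM, *Actb* from 345–531 CPM to 3326 and 871 CPM, and *Actg1* from 64.2–110.1 CPM to 1366 and 329 CPM. The summed level of the list was 1546 to 2001 CPM at 0 h, 12302 CPM in the control pool and 3353 CPM in the LKO pool.

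Several chemokines that call neutrophils and monocytes rose. Of 26 genes 18 could be tested, 8 rose and 2 fell (55.6%, against 30.9% of all genes tested). Since 2 of them (*Cxcl2* and *Ccl7*) passed the filter only with the 12 h pools, this count is given as a description. *Cxcl2*, a neutrophil attractant, was counted at 0.0571, 0.208, 0 and 0.177 CPM in the control mice at 0 h, 0.135, 0, 0.169 and 0.211 CPM in the LKO mice at 0 h, and 44.8 and 8.43 CPM in the control and LKO pools. Both pools were far above the untreated mice (7.39 ± 0.49). *Ccl7* rose from 0–0.158 CPM to 13.0 and 0.756 CPM, *Ccl2* from 0.135–1.25 CPM to 13.1 and 2.50 CPM, and *Cxcl1* from 5.72–48.7 CPM to 190.2 and 25.4 CPM. *Cxcl16* and *Ccl9* fell by 1.42 and 1.40 on the log2 scale. In the LKO pool *Cxcl1* lay within the 0 h range, and without the control pool 1 gene (*Cxcl2*) was called higher and 3 lower. The cytokine genes *Il6*, *Tnf*, *Osm* and *Lif* were too low to be tested.

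Markers of neutrophils were higher as well. The summed level of the 15 markers in the files was 12.7 to 23.1 CPM at 0 h, 65.9 CPM in the control pool and 55.2 CPM in the LKO pool, and 6 of 10 tested rose and none fell (60%, against 30.9% of all genes tested). *S100a9*, an abundant calcium-binding protein of neutrophils, stood at 0.742, 0.762, 0.929 and 3.42 CPM in the control mice at 0 h, 2.36, 2.35, 0.394 and 1.26 CPM in the LKO mice at 0 h, and 5.17 and 5.64 CPM in the control and LKO pools (log2 fold change of 1.81 ± 0.56 (SE), edgeR adjusted p = 0.025). *Hdc*, histidine decarboxylase, rose from 4.95–11.2 CPM to 44.9 and 31.5 CPM, and made up most of the summed level in both pools. The granule genes *Mpo*, *Elane*, *Ltf*, *Camp* and *Ngp* were too low to be tested, and 2 of the 10 tested markers passed the filter only with the 12 h pools, so the count of 6 is given as a description. Leaving out either pool left 2 called.

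Of 10 tested markers of recruited monocytes and macrophages 4 rose (40%, against 30.9% of all genes tested), and 2 did without the LKO pool. Of the 10, 2 (*Chil3* and *F13a1*) passed the filter only with the 12 h pools, so this count too is a description. *Cd14*, a receptor for bacterial products, went from 2.25–7.35 CPM to 147 and 20.6 CPM (4.12 ± 0.44), *F13a1* rose by 3.76 ± 0.79 and *Chil3* by 2.88 ± 0.67, while *Trem2* and *Gpnmb* were too low to be tested. The summed level of the 13 markers in the files was 1227 to 1593 CPM at 0 h, 1920.2 CPM in the control pool and 3269 CPM in the LKO pool. Most of it was *Fn1* (fibronectin), which hepatocytes also secrete, at 1135 to 1513 CPM at 0 h and 1701 and 3198 CPM in the pools (0.81 ± 0.20). Resident Kupffer cell markers gave 1 higher (*Marco*, 1.13 ± 0.41) and 2 lower (*Clec4f*, -1.07 ± 0.35, and *Adgre1*, -1.10 ± 0.38) of 11 (27.3%, also near that share), with a summed level of 218 to 549 CPM at 0 h, 221 CPM in the control pool and 214 CPM in the LKO pool. None of them was called without the LKO pool, and 1 was lower and none higher without the control pool. Among stellate cell and fibroblast genes *Col3a1* and *Col1a1* fell by 2.09 and 1.66 on the log2 scale and *Ecm1* rose by 0.66 ± 0.18 (1 higher and 3 lower of 15, 26.7%), the rise being lost without the control pool. Of 17 sinusoidal endothelial markers 3 were higher (*Lyve1*, *Stab1* and *Cdh5*) and 3 lower (*Dnase1l3*, *Oit3* and *Clec4g*), shares near the 17% and 13.9% of all genes, with 1 each way without the control pool. *Sox9*, which marks bile duct cells and hepatocytes near them, was the 1 of 7 tested cholangiocyte markers that rose, from 3.55–7.34 CPM to 123 and 19.5 CPM, and the 9 markers summed to 50.1 to 89.8 CPM at 0 h, 183 CPM in the control pool and 57.2 CPM in the LKO pool. Without the control pool 3 cholangiocyte markers were lower. Of the lymphocyte markers 2 of 9 tested were lower and none higher (1 lower with either pool left out, and 1 of the 9 tested only with the 12 h pools), with a summed level of 5.89 to 9.79 CPM at 0 h, 3.01 CPM in the control pool and 5.82 CPM in the LKO pool. Stellate cell and fibroblast markers summed to 276 to 457 CPM at 0 h, 553 CPM in the control pool and 384 CPM in the LKO pool, and endothelial ones to 562 to 692 CPM at 0 h, 626 CPM in the control pool and 594 CPM in the LKO pool. The hemoglobin genes are listed at 0 in all 10 libraries, and 1 of 6 erythroid markers could be tested (lower). The part of these shifts in marker levels in the other results was not tested.

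Acute-phase genes, which hepatocytes express under interleukin 6, rose in 12 of 24 cases and fell in 2 (58.3% called, against 30.9% of all genes tested), with a median of 0.75. Without the LKO pool 6 rose and the median was 0.46. *Lcn2* (lipocalin 2) was counted at 1.66, 8.59, 23.5 and 6.25 CPM in the control mice at 0 h, 32.4, 14.3, 3.04 and 4.53 CPM in the LKO mice at 0 h, and 230.4 and 310.2 CPM in the control and LKO pools, with both pools above the untreated mice (log2 fold change of 4.54 ± 0.68 (SE), edgeR adjusted p = 0.00048). The 3 fibrinogen chains *Fga*, *Fgb* and *Fgg* rose by 1.03 ± 0.20, 1.13 ± 0.19 and 0.83 ± 0.20, *Serpina3n* by 1.80 ± 0.23 and *Socs3*, a feedback inhibitor of that pathway, by 1.69 ± 0.37. *Saa4* and *Crp* fell by 1.82 and 1.6 on the log2 scale. By size, the change was larger in the LKO pool than in the control pool for 19 of the 24 genes. Negative acute-phase genes were called in a share of 11.1%, below the 30.9% of all genes tested, with a median of -0.17. The 2 negative acute-phase genes called were *Ttr* and *Serpina6*, of 18 tested, with log2 fold changes of -0.97 ± 0.34 and -2.6 ± 0.61, and none was called without the LKO pool.

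Part of the blood clotting genes fell and part of the plasminogen genes rose. Among coagulation factors and inhibitors 7 of 16 fell and none rose (43.8%, against 30.9% of all genes tested), including *F11* (-1.38 ± 0.24), *Serpind1* (-1.35 ± 0.17) and *Klkb1* (-1.22 ± 0.21). Of 9 genes of plasminogen activation and HGF 4 rose (44.4%): *Plaur* by 4.21 ± 0.43, *Thbs1* by 2.66 ± 0.38, *Hgf* by 1.42 ± 0.25 and *Plat* by 3.36 ± 0.74, the last only in the control pool (without it the log2 fold change was -0.30). Of the 9, 1 passed the filter only with the 12 h pools, and 2 rose without the control pool. The complement list gave 1 higher and 5 lower of 18 (33.3%, against 30.9% of all genes tested), with 3 lower without the control pool and 2 without the LKO pool. Interferon-stimulated genes were called in shares near those of all genes (17% higher and 13.9% lower), with 4 higher (*Oasl1*, 2.05 ± 0.24, and *Rsad2*, 1.83 ± 0.28, most) and 3 lower (*Igtp*, *Ifi47* and *Bst2*) of 21, and without the control pool 2 were higher and 5 lower.

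Of 22 bile acid genes tested 7 were lower and 1 (*Abcc4*) higher, the latter not without the control pool. The share called either way was 36.4%, against 30.9% of all. *Abcb11*, the bile salt export pump, was counted at 480.5, 554, 511 and 437 CPM in the control mice at 0 h, 584, 531, 388 and 515 CPM in the LKO mice at 0 h, and 85.4 and 71.8 CPM in the control and LKO pools. Both pools were below all untreated mice (log2 fold change of -2.67 ± 0.21 (SE), edgeR adjusted p = 5.9e-06). *Nr0b2* (SHP), the repressor induced by bile acids, stood at 81.4, 40.4, 46.0 and 58.0 CPM in the control mice at 0 h, 127, 37.3, 72.3 and 96.7 CPM in the LKO mice at 0 h, and 3.40 and 10.8 CPM in the control and LKO pools (log2 fold change of -3.40 ± 0.50 (SE), edgeR adjusted p = 0.00041). The uptake carriers *Slco1a1* and *Slco1b2* fell by 2.90 and 2.33 on the log2 scale. *Cyp7a1* changed by -1.45 ± 0.57, with a 0 h range of 31.0 to 144 CPM, and was not called. Cholesterol synthesis genes were lower in 6 of 21 cases, a share of 28.6% (*Stard4*, *Sc5d*, *Fdft1*, *Insig1*, *Nsdhl* and *Mvk*).

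Genes of lipid droplets and fat oxidation rose in part. Of 24 PPAR-alpha targets 9 were higher and 2 lower (45.8%, against 30.9% of all genes tested), and there were 4 higher and 1 lower without the LKO pool and 7 higher and none lower without the control pool. *Pdk4*, the kinase that shuts pyruvate out of the mitochondrion, was counted at 4.51, 4.64, 7.94 and 4.90 CPM in the control mice at 0 h, 4.79, 6.47, 5.24 and 7.32 CPM in the LKO mice at 0 h, and 134 and 78.8 CPM in the control and LKO pools, with no overlap (log2 fold change of 4.20 ± 0.22 (SE), edgeR adjusted p = 3.2e-07). *Cidec*, a lipid droplet protein, stood at 5.54, 9.07, 8.19 and 4.48 CPM in the control mice at 0 h, 4.99, 5.46, 5.29 and 5.00 CPM in the LKO mice at 0 h, and 146 and 217 CPM in the control and LKO pools (log2 fold change of 4.95 ± 0.22 (SE), edgeR adjusted p = 7.9e-08). *Plin2* rose by 2.63 ± 0.19 and *Acot2* by 4.44 ± 0.42. The fatty acid hydroxylase *Cyp4a14* spread from 0.676 to 637 CPM among untreated mice and was 2688 and 3102 CPM in the pools (4.27 ± 1.46), and it did not pass without the control pool (edgeR adjusted p = 0.24). *Apoa4*, an apolipoprotein chosen after its values were seen, was counted at 113, 74.7, 106 and 121 CPM in the control mice at 0 h, 83.6, 145, 94.1 and 95.4 CPM in the LKO mice at 0 h, and 2689 and 2698 CPM in the control and LKO pools, nearly equal in both pools (log2 fold change of 4.69 ± 0.19 (SE), edgeR adjusted p = 5.4e-08). Of 16 genes of lipogenesis and glycolysis 2 rose and 2 fell, and of 20 of gluconeogenesis and amino acid breakdown 4 rose and 3 fell, shares of 25% and 35% against 30.9% of all genes tested. Without the LKO pool none of the former rose and 1 fell, and 1 of the latter rose, while without the control pool none of the latter fell. *Thrsp* fell by 1.84 and *G6pc* by 1.61 on the log2 scale. Whether pooled mice ate in the 12 h after injection is not given in the sources used here, so feeding state and APAP cannot be told apart for these genes.

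Of 21 clock genes 3 rose and 5 fell, and 2 fell without the control pool. The share called was 38.1%, against 30.9% of all genes tested. *Dbp*, a clock output gene, was counted at 123, 83.1, 29.7 and 114 CPM in the control mice at 0 h, 44.7, 28, 98.6 and 116 CPM in the LKO mice at 0 h, and 9.82 and 11.2 CPM in the control and LKO pools. *Arntl* (BMAL1), which peaks in the opposite phase, stood at 3.48, 2.42, 8.53 and 2.30 CPM in the control mice at 0 h, 12.3, 8.18, 3.55 and 1.95 CPM in the LKO mice at 0 h, and 15.3 and 22.1 CPM in the control and LKO pools. Both pools were below every untreated mouse in *Dbp* (log2 fold change of -2.90 ± 0.64 (SE), edgeR adjusted p = 0.0046) and above every one in *Arntl* (log2 fold change of 1.83 ± 0.52 (SE), edgeR adjusted p = 0.018), and neither passed without the control pool (edgeR adjusted p = 0.076 and 0.14). Untreated mice differed too: control replicate 3 and LKO replicates 1 and 2 had the lowest *Dbp* and the highest *Arntl*. Time of day at harvest is not given in the sources used here, so clock phase and APAP cannot be told apart.

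Male-patterned targets of growth hormone had the lowest median of all lists, -1.63, with 6 of 15 lower and none higher (40%, against 30.9% of all genes tested). *Hsd3b5*, a steroid dehydrogenase of male liver, was counted at 264, 234, 286 and 101 CPM in the control mice at 0 h, 173, 77.0, 255 and 168 CPM in the LKO mice at 0 h, and 2.95 and 3.84 CPM in the control and LKO pools, and the pools were far below all of them (log2 fold change of -5.81 ± 0.61 (SE), edgeR adjusted p = 4.6e-05). *Selenbp2* stood at 261, 3141, 2095 and 46.4 CPM in the control mice at 0 h, 1985, 46.3, 264 and 136 CPM in the LKO mice at 0 h, and 12.0 and 15.2 CPM in the control and LKO pools. Its untreated mice spread widely, from 46.3 to 3141 CPM, and it did not pass without the control pool (log2 fold change of -5.97 ± 1.96 (SE), edgeR adjusted p = 0.033, against edgeR adjusted p = 0.22). *Ghr*, the growth hormone receptor, and *Igfals*, which carries IGF1 in blood, fell by 1.63 and 2.09 on the log2 scale.

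Cell cycle genes gave no common rise at 12 h. Of 16 G1 genes 2 rose (*Cdkn1a* and *E2f7*, the latter tested only with the 12 h pools) and 3 fell, with 1 each way without the control pool, of 15 tested replication genes 3 rose (*Cdt1*, *Rrm2* and *Mcm4*) and 3 fell, and of 14 tested mitosis genes none rose and 5 fell. Without the control pool no replication gene was called higher and 2 were lower, and 1 was called each way without the LKO pool. Of the mitosis genes 2 were lower with either pool left out. The shares called in the G1, replication and mitosis lists were 31.2%, 40% and 35.7%, against 30.9% of all genes tested. *Cdt1*, which licenses replication origins, went from 1.94–5.01 CPM to 31.8 and 7.10 CPM (2.51 ± 0.48). *Plk1*, a mitotic kinase, had 49 counts over the untreated mice and 0 in both pools, at least 3.20-fold lower by the exact 95% interval (counting error only). *Birc5*, *Top2a*, *Mki67* and *Aurka* fell by 3.45, 2.02, 1.76 and 1.74 on the log2 scale, from 0 h levels of at most 4.34 CPM. Genes of oxidative phosphorylation gave 3 lower of 26 and none higher, and liver transcription factors 1 higher (*Prox1*) and 1 lower (*Nr5a2*) of 18, shares below the 30.9% of all genes tested. Without the LKO pool 1 oxidative phosphorylation gene was lower. Liver transcription factors gave 2 higher and none lower without the control pool, and none higher and 2 lower without the LKO pool, so their split turned with the pool. Genes of oxygen shortage rose in 7 of 17 cases and fell in 1 (47.1%, against 30.9% of all), led by *Hilpda* and the glucose importer *Slc2a1* (3.34 ± 0.55), and 4 rose without the control pool.

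The 12 genes with the largest rise among those changed in both pools at a mean of at least 1 on the log2 CPM scale were *Sprr1a*, *Fosl1*, *Cxcl2*, *Fosb*, *Slc34a2*, *Areg*, *Sult1e1*, *Dusp5*, *Atf3*, *Gm3776*, *Hilpda* and *Gsta1*. *Areg*, a ligand of the EGF receptor, went from 0–0.338 CPM to 24.2 CPM in the control and 1.40 CPM in the LKO pool (6.74 ± 0.70). *Slc34a2*, a phosphate transporter, went from 0–0.607 CPM to 66.1 and 5.29 CPM (6.76 ± 0.71), *Sult1e1*, the estrogen sulfotransferase, from 0–0.253 CPM to 21.9 and 2.44 CPM (6.69 ± 0.52), and *Dusp5*, an ERK phosphatase, from 0.394–1.45 CPM to 149.8 and 18.3 CPM (6.33 ± 0.45). In 10 of the 12 the control pool was higher than the LKO pool, and *Sprr1a* and *Atf3* were higher in the LKO pool. Of the 12, *Sprr1a*, *Fosl1*, *Cxcl2*, *Slc34a2*, *Areg* and *Sult1e1* passed the filter only with the 12 h pools, so their place here is a description.

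By the same rule the 12 largest falls were in *H2-Eb1*, *Selenbp2*, *Hsd3b5*, *Snhg11*, *Ptgds*, *Slc13a3*, *Slc1a2*, *Sulf1*, *Slc22a28*, *Ppp1r3g*, *1810064F22Rik* and *Keg1*. *H2-Eb1*, a chain of the MHC class II molecule, was counted at 13.2, 12.2, 5.15 and 7.14 CPM in the control mice at 0 h, 1.01, 0.695, 11.9 and 21.2 CPM in the LKO mice at 0 h, and 0 and 0.116 CPM in the control and LKO pools, and its untreated mice spread widely, with LKO replicates 1 and 2 near 1 CPM. The part of strain background or read mapping in its fall was not tested. *Keg1*, a glycine acyltransferase-like gene of liver and kidney, went from 98.1–298 CPM to 7.86 and 13.4 CPM (log2 fold change of -4.02 ± 0.50 (SE), edgeR adjusted p = 0.00014). *Slc13a3*, a carrier of dicarboxylates, went from 11.4–26.6 CPM to 0.327 and 0.814 CPM (-4.94 ± 0.51), and *Ppp1r3g*, a glycogen-targeting phosphatase subunit, from 31.2–82.5 CPM to 3.34 and 2.21 CPM (-4.41 ± 0.48). *Sulf1*, a sulfatase of heparan sulfate, had 343 counts at 0 h and 3 at 12 h, a 0 h to 12 h ratio of 28.6 (exact 95% interval 9.71 to 140, counting error only). *Ptgds* (-5.14 ± 1.01), *Slc22a28* (-4.63 ± 0.70), *Snhg11* (-5.20 ± 1.5) and *1810064F22Rik* (-4.37 ± 0.94) completed the list, and the last 2 did not pass without the control pool.

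The change at 12 h was also compared between genotypes, where each arm at 12 h is 1 pool. An interaction term called 80 of 13164 genes (0.608%), 76 with a lower (0.577%) and 4 with a higher (0.0304%) change in LKO, and 2011 had an unadjusted p under 0.05. Each genotype has 1 pool here, so genotype and pool cannot be told apart. The spread behind this p comes from the untreated mice alone, the fit assumes that a pool varies like a single mouse, and how many genes differ between genotypes cannot be read from the count. *Hbegf*, a growth factor of the EGF family, was counted at 0.799, 0.831, 0.591 and 0.944 CPM in the control mice at 0 h, 0.742, 1.02, 1.07 and 1.16 CPM in the LKO mice at 0 h, and 62.2 and 2.79 CPM in the control and LKO pools. The control pool rose far above the untreated mice and the LKO pool little, a difference in log2 change of -4.80 ± 0.45 (SE), edgeR adjusted p = 0.0061. *Plat*, tissue plasminogen activator, stood at 0.400, 0.416, 0.845 and 0.649 CPM in the control mice at 0 h, 0.876, 0.802, 0.676 and 0.790 CPM in the LKO mice at 0 h, and 16.8 and 0.640 CPM in the control and LKO pools. Only the control pool left the 0 h range for *Plat* (-5.16 ± 0.66 (SE), edgeR adjusted p = 0.017). *Fhl3* (-5.10 ± 0.78 (SE), edgeR adjusted p = 0.027), *Lpar2* (-4.30 ± 0.75 (SE), edgeR adjusted p = 0.04) and *1700019G17Rik* (-3.80 ± 0.48 (SE), edgeR adjusted p = 0.017) were the other 3 of the 5 largest. *Hilpda*, which blocks lipolysis in lipid droplets, went from 1.01–2.96 CPM to 219 and 17.6 CPM (-3.70 ± 0.65 (SE), edgeR adjusted p = 0.041). *Krt8*, *Krt18*, *Actb*, *Anxa2*, *Klf6*, *Sox9* and *Dusp16* belong to the 76 as well, with differences between -1.93 and -2.82. The 4 with a higher change in LKO were *2810006K23Rik* (2.39), *Dffa* (1.77), *Zbtb40* (1.64) and *Aldh8a1* (1.58), all lower in the control pool than in any untreated mouse. With the later pools added to the fit, edgeR called 0 genes (1987 at an unadjusted p under 0.05), DESeq2 on the 10 libraries called 368, and leaving out 1 untreated mouse at a time gave 16 (without control replicate 1) to 118 genes (without control replicate 3). By size of change, the control pool moved more than the LKO pool in 24 of 26 genes of ribosome assembly, 21 of 25 JNK genes and 22 of 30 NRF2 targets, and in 2791 of the 4072 called genes. It moved more in 5 of 24 acute-phase genes, 9 of 22 heat shock genes, 12 of 31 proteasome genes, 1 of 8 genes of APAP activation and 1 of 11 Kupffer cell markers.

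The livers at 12 h were also set against those of the next time, 24 h, again with 1 pool per genotype. Of 13855 genes tested 2319 were called (16.7%), 1178 higher (8.5%) and 1141 lower (8.24%) at 12 h. With library size alone as the scale, which shifted the median of all genes to -0.14, the split was 651 higher and 1650 lower. Immediate-early genes were higher at 12 h than at 24 h in 14 of 23 cases and lower in none. *Atf3* was 195 and 245 CPM at 12 h and 14.4 and 8.09 CPM at 24 h (log2 difference of 4.44 ± 0.59 (SE), edgeR adjusted p = 0.00083), and *Fosb* 258 and 41.3 CPM and 6.07 and 1.56 CPM (log2 difference of 5.14 ± 0.73 (SE), edgeR adjusted p = 0.0011). *Hspa1a* went from 39.9 and 151 CPM to 3.03 and 5.19 CPM (log2 difference of 4.49 ± 0.64 (SE), edgeR adjusted p = 0.0011), *Hspa1b* changed by 4.50 ± 0.80 and *Efr3b*, a membrane scaffold gene, by 3.92 ± 0.73. The genes with the largest rise from 12 to 24 h were *A630076J17Rik*, *H2-Eb1*, *S100a4*, *Fignl1* and *Prtn3*, each at most 0.480 CPM in both 12 h pools on the scale of the 18 libraries. *A630076J17Rik* had 0 counts in both pools at 12 h against 253 at 0 h, at least 17.05-fold lower by the exact 95% interval (counting error only). Its untreated mice spread from 0.0610 to 7.17 CPM, so that the lowest was near 0 as well. Cholesterol synthesis and replication genes were lower at 12 h than at 24 h in 14 of 21 and 7 of 15 cases, and none was higher. *Srxn1* (log2 difference of 0.72 ± 0.29 (SE), edgeR adjusted p = 0.094), *Cdkn1a* (log2 difference of 0.77 ± 1.17 (SE), edgeR adjusted p = 0.69) and *Cyp1a2* (log2 difference of 0.56 ± 0.63 (SE), edgeR adjusted p = 0.58) did not pass between the 2 times. This comparison rests on single pools: leaving out the LKO pool at 24 h left 501 calls.

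**Figure D5:**
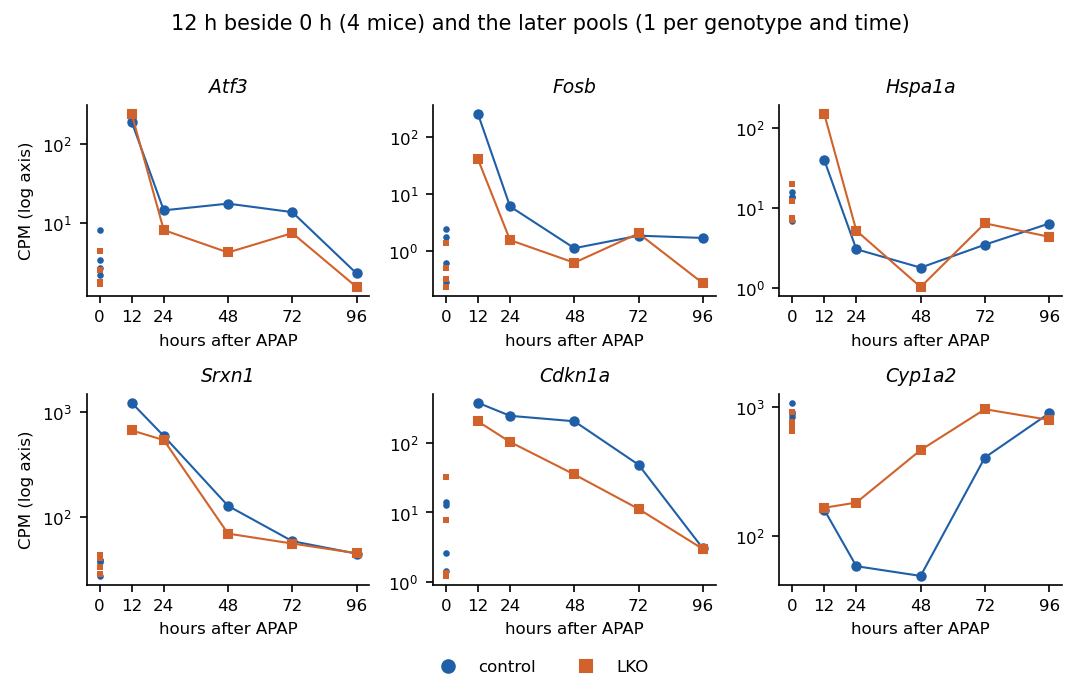
CPM on a log axis against hours after APAP for 6 genes, scaled over the 18 libraries of both genotypes. Small points at 0 are 4 control (circles) and 4 LKO (squares) mice, and each joined point is 1 pool of 3 mice; *Atf3*, *Fosb* and *Hspa1a* are highest at 12 h in both genotypes, and at 12 h *Cyp1a2* lies below all mice at 0 h.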

How the data were processed

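Per the labels and the study's methods, the authors removed adapters and poor bases (Trimmomatic), ran STAR against mm10, and deposited raw gene counts for each library. The deposited count column that disregards strand was used, without the rows of unassigned reads. Reads that match several genes were not counted, so near-identical genes are uncertain. Coordinates come from GENCODE vM21 (GRCm38), where 23379 of 24411 symbols matched, and promoters from RefSeq (GRCm38.p6). Another cohort of this series was not used here.

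Counts were filtered with filterByExpr, scaled by TMM and fitted with edgeR 4.0.16 (quasi-likelihood, 2-sided, R 4.3.3), with genotype as a covariate for time and an interaction term for the genotype difference. The study's methods name DESeq2, here run as an alternative (1.42.0). Benjamini-Hochberg adjustment ran over all genes, and pool changes used a prior count of 2. The fit of 12 h against 24 h used all 18 libraries of the cohort. Each p sets a change against a spread between libraries, which for 12 h against 24 h was estimated over all times. No p holds the spread between single treated mice, which were sequenced only as pools. Fits were also run on simulated counts with known changes. There the pools were drawn like single mice, so this run cannot check calls that rest on 1 pool per genotype. Untreated mice of a group differed beyond sampling noise.

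The gene lists and named genes were chosen with earlier results of these data known. Some members of the lists were left out of them and are not reported here. Genes named are the 12 largest called increases and decreases at a mean log2 CPM of at least 1 that changed at least 1.5-fold in each pool, list members, the 5 largest genotype differences and 12 h to 24 h differences in each direction, and *E2f7* and *E2f8*. Alternatives were scaling, filters, tool, fold limit, strand column, covariate and samples, each library left out in turn.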

Additional observations from a re-analysis of the deposited data

Results flagged for a closer look

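Outlying untreated mice were sought in 86 groups of 4 values and found in 8, where chance flags about 1 in 20 groups. In *Sprr1a* (0.16 CPM, LKO), *Fosl1* (0.0535 CPM, LKO) and *Slc7a11* (0.059 CPM in a control and 0.0535 CPM in an LKO mouse) a single mouse held all the counts of its group, so that these 4 follow from near-zero counts and are not to be set against the rate of chance. *Srxn1* was lowest at 26.5 CPM in control replicate 1, next to 36.2 CPM. *S100a9* was highest at 3.42 CPM in control replicate 4 (next 0.929 CPM) and *Pdk4* at 7.94 CPM in control replicate 3 (next 4.90 CPM). *Selenbp2* reached 1985 CPM in LKO replicate 1, where the next LKO mouse had 264 CPM.

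For 17 named genes the interaction term called a difference between genotypes in the 12 h change, given as LKO minus control on the log2 scale. It was negative in *Plat* (-5.16), *Fhl3* (-5.10), *Hbegf* (-4.80), *Lpar2* (-4.30), *1700019G17Rik* (-3.80), *Hilpda* (-3.70), *Anxa2* (-2.82), *Krt18* (-2.50), *Krt8* (-2.46), *Sox9* (-2.19), *Actb* (-2.07), *Dusp16* (-2.03) and *Klf6* (-1.93). It was positive in *2810006K23Rik* (2.39), *Dffa* (1.77), *Zbtb40* (1.64) and *Aldh8a1* (1.58). Genotype and pool cannot be told apart in these values.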

How the results depend on the processing

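The 12 h pools limit the results, since each genotype has 1, and 2791 of the 4072 called genes changed more in the control pool. The 4072 calls at 12 h against 0 h became 1735 when the 1.5-fold limit was part of the test (glmTreat), 1365 in the LKO libraries alone, and 1831 to 4154 when 1 library was left out, the lowest without the control pool. The 2994 changes shared by both pools became 1489 at a 2-fold limit, and other settings kept the count within 1.5 times. The 80 genotype differences became 368 with DESeq2, 46 with library size alone, 11 with glmTreat, 44 with the fourth, stranded count column, 0 with all 18 libraries (edgeR, 1987 at an unadjusted p under 0.05) and 16 to 118 when 1 untreated mouse was left out. For 12 h against 24 h the 2319 calls became 392 with glmTreat and 501 to 1522 when 1 pool was left out, the lowest without the LKO pool at 24 h. No paired analysis was possible, since livers at each time come from different mice and each 12 h pool mixes 3 mice. The filter was passed by 316 of 13164 genes only with the 12 h pools, and the part of depth in the calls was not tested. The causes of these changes were not tested.

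The sign of the fitted log2 fold change at 12 h against 0 h turned in some named genes. In the LKO libraries alone it was -0.45 for *Anxa2*, 0.59 for *Dffa*, -0.085 for *Dusp16*, -0.13 for *Gclm*, -0.16 for *H2-Aa*, -0.39 for *H2-Ab1*, -0.32 for *Klf10*, -1.08 for *Lpar2*, -0.30 for *Plat* and 0.17 for *Zbtb40*. In the control libraries alone it was -0.21 for *Axin2*, 0.29 for *Dusp1*, -0.23 for *E2f8*, -0.48 for *Hspe1* and 0.16 for *Nr4a1*. With no genotype term it was -0.0038 for *H2-Ab1*. With 1 library left out at a time it ranged from -0.45 to 2.37 for *Anxa2*, -0.20 to 1.99 for *Axin2*, -1.18 to 0.59 for *Dffa*, -0.081 to 1.94 for *Dusp16*, -0.58 to 0.29 for *Dusp1*, -0.22 to 0.90 for *E2f8*, -0.13 to 0.49 for *Gclm*, -0.16 to 0.36 for *H2-Aa*, -0.38 to 0.37 for *H2-Ab1*, -0.47 to 0.62 for *Hspe1*, -0.32 to 1.02 for *Klf10*, -1.07 to 3.22 for *Lpar2*, -1.75 to 0.42 for *Nr4a1*, -0.30 to 4.86 for *Plat* and -1.46 to 0.18 for *Zbtb40*.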

Other observations

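The MHC class II chain *H2-Eb1* stood apart from its partners, which were chosen after its values were seen. It fell from 1232 counts over the 8 untreated mice to 2 in both pools, a ratio of 154 (exact 95% interval 42.6 to 1275, counting error only), while *H2-Ab1* changed by 0.03 ± 0.23 (edgeR adjusted p = 0.93), *H2-Aa* by 0.12 ± 0.19 (edgeR adjusted p = 0.63) and *Cd74*, the invariant chain, by -0.36 ± 0.22 (edgeR adjusted p = 0.22). Only unique reads were counted and the mice are of mixed background, and the part of mapping or strain in this fall was not tested.

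Untreated mice spread widely in a few of the named genes. *Cyp4a14* spread over 0.676 to 637 CPM, *Selenbp2* over 46.3 to 3141 CPM and *Mt1* over 22.7 to 1537 CPM, and in all 3 the fold between the lowest and highest mouse exceeded that between either pool and the nearest untreated mouse.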
